A study of Mus musculus with 4 samples.

Results

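Most replacement histones are made throughout the cell cycle from polyadenylated transcripts, unlike the replication-dependent histones, whose mRNAs end in a stem-loop and appear mainly in S phase. The genes described here are 10 that encode replacement and linker histones of the mouse, chosen by symbol: H3f3a and H3f3b (H3.3), H2afz and H2afv (H2A.Z), H2afx (H2A.X), H2afj (H2A.J), H2afy and H2afy2 (macroH2A), and H1f0 and H1fx (linker histones). The replication-dependent linker histone genes are not among them. All 10 symbols were among the 24421 of the count matrix, and 9 were among the 9150 genes with enough counts to be tested.

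The libraries came from B16F10 cells, a metastatic melanoma line of the C57BL/6 mouse strain, transduced with lentivirus and selected in puromycin. The control vector, listed by the study as empty, was carried by cells of 2 libraries (shControl 1 and 2), and cells of the other 2 expressed a short hairpin RNA that targets Lmna (shLmna 1 and 2). Transduction and selection were thus common to both groups, whereas expression of a hairpin was not, and the effect of a hairpin as such cannot be told apart from that of losing lamin A and lamin C, the lamina proteins encoded by Lmna. A single hairpin was used, and no source states whether replicates were transduced separately, so that the tests measure spread between libraries that may be technical. RNA was profiled by bulk MARS-seq, in which poly(A) tails are primed and the 3′ ends of transcripts are counted.

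Totals were 2494880 to 3808843 counts per library. Lmna was 797 ± 111 CPM (counts scaled to library size by the TMM method; mean ± SD, n = 2) in shControl and 131 ± 0.0955 CPM in shLmna, as the labels say. All 10 melanocyte markers had counts, but Tyr had only 1 in each shControl library and 3 and 7 in shLmna 1 and 2, and was not tested. The 10 markers summed to 21106 to 21995 CPM in shControl and 22327 to 25900 in shLmna. Of the 9 tested, Mlana, Pmel and Gpr143 were higher in shLmna and Sox10 was lower (log2 fold change -0.89), each with an adjusted p under 0.05. Gpr143 lost this in DESeq2 (0.241) and in edgeR's quasi-likelihood test after a correction for GC content (0.156). After that correction Mitf was lower as well (log2 fold change -0.46, adjusted p = 0.0322). Of 14 markers of immune, endothelial, fibroblast, epithelial, liver and red blood cells, 9 were at 0 in every library, among them Ptprc, Epcam and Cdh5, and the list summed to 1.58 to 5.36 CPM per library, with Col1a1 at no more than 13 counts.

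Histone variants replace the canonical histones in nucleosomes at defined places. H3.3 is placed by HIRA at active genes and by DAXX and ATRX at heterochromatin and telomeres, H2A.Z flanks the start sites of transcribed genes, H2A.X is phosphorylated around DNA breaks, and macroH2A, with its large globular domain, is enriched on silent chromatin such as the inactive X chromosome. Linker histones bind the DNA between nucleosomes and favour compaction, and heterochromatin lies against the lamina that lamin A and lamin C help to build.

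The comparison asked whether the transcripts of these histones differed between lamin A/C-depleted and control melanoma cells. Both H3.3 genes and H1f0 were lower in shLmna. Adjusted p-values of edgeR's quasi-likelihood test (Benjamini-Hochberg over 9150 genes) were under 0.05 for these 3 of the 9 tested genes, against 9.74% of all tested genes that were lower at that threshold. No member was higher at that threshold (0 of 9, against 5.48% of all tested genes), none was higher at an unadjusted p under 0.05, and none was higher by DESeq2 either. DESeq2 kept 1 of the 3 lower members, H3f3a (adjusted p = 5.72e-05), and lost H3f3b (0.177) and H1f0 (0.181). Under the study's limits, which add a log2 fold change over 1 in size and a mean normalised count over 5, H3f3b alone was called, against 5.88% of all genes tested that were called lower, and in DESeq2 0 members were called (1 at an unadjusted p under 0.05). The log2 fold change was negative for 7 of the 9 genes and positive for 2, with a median of -0.38 beside -0.00107 over all tested genes. Without shLmna 1 the adjusted p stayed under 0.05 for 1 member, H3f3b, and without shControl 2 or shLmna 2 for 2. In such fits a library left alone in its group is assumed to vary like the other group. In bulk RNA, less RNA per cell and fewer cells with the transcript cannot be told apart.

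Library by library, 6 of the 9 genes were lower in both shLmna libraries than in both shControl libraries, 1 was higher in both and 2 overlapped. Such separation was common, since 30.6% of all tested genes separated with shLmna lower and 29.5% with shLmna higher. The share of all counts taken by the 10 genes was 0.167% and 0.172% in shControl and 0.090% and 0.110% in shLmna. H3.3 transcripts made up 44.7% and 49.8% of the counts of the 10 genes in shControl, 17.6% in shLmna 1 and 28.2% in shLmna 2.

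**Figure D1:**
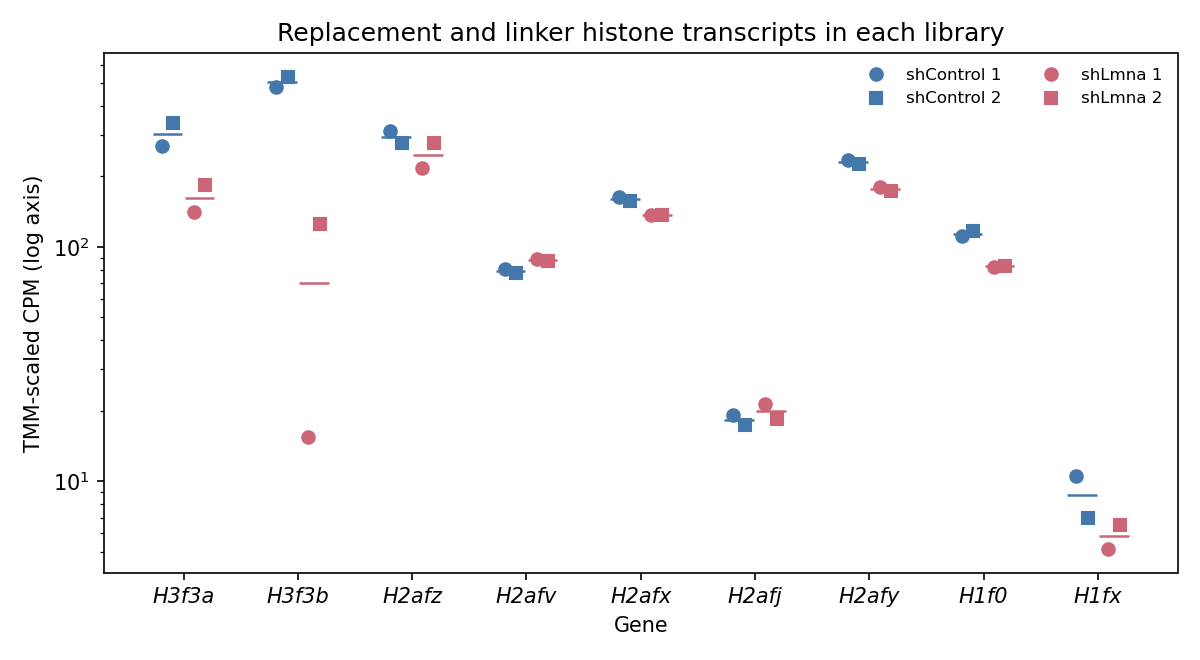
TMM-scaled CPM on a log axis for the 9 tested genes, with 1 point per library, circles for replicate 1, squares for replicate 2 and a line at the mean of each group. H3f3b dropped from the most abundant of these transcripts in shControl (483 and 533 CPM) to 15.4 and 125 CPM in shLmna, whereas the points of H2afv and H2afj lay close together.

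H3f3a and H3f3b are separate genes for the same protein. H3f3a lies at chr1:180800832-180813943 and H3f3b at chr11:116021912-116027962, both on the minus strand (GRCm38), and each has 4 exons in the annotated transcript used here. The encoded proteins are identical over all 136 residues, yet the coding sequences differ at 95 of 408 bases (76.7% identity). The first 150 coding bases are shown because they make this plain, with the 32 bases that differ between the genes in capitals. These changes fall in 29 of the 50 codons.
H3f3a: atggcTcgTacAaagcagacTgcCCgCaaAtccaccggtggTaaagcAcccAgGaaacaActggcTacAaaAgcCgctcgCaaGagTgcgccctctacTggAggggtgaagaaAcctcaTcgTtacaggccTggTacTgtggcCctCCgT
H3f3b: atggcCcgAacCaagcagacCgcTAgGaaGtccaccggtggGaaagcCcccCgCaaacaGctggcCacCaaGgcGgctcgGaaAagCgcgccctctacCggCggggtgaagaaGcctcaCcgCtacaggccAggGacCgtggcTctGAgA

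Reads of MARS-seq come from the far end of the transcript. For H3f3a the annotated transcript was first cut by 1728 bases, to the 3′ end in RefSeq. Its coding transcripts have 6 distinct 3′ ends, and uncut their last 1000 bases hold 44.2% to 62.0% G and C. The cut window holds 42.7%. In the last 1000 bases so defined, no stretch of 31 bases was common to H3f3a and H3f3b. Of the 31-base stretches of the H3f3a window, 58.7% also occur in at least 1 of 55 other genes, led by H3f3c with 31.1%, which had no row in the matrix. Reads of H3f3a may therefore be shared with or lost to such copies, and its level is uncertain to that extent. The H3f3b window shared none of its stretches (0.0%) with another gene.

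H3f3b was counted 1558 times in shControl 1, 1992 times in shControl 2, 39 times in shLmna 1 and 458 times in shLmna 2. In CPM these counts are 483, 533, 15.4 and 125, so both shLmna libraries lay below both controls, but they differed from each other by 8.09-fold. The group means were 508 ± 35.9 and 70.1 ± 77.3 CPM (SD, n = 2). H3f3b thus fell by 2.80 on the log2 scale (SE 0.574, adjusted p = 0.01 in edgeR's quasi-likelihood test), a decrease of 85.7%. Relative to the control mean, the level was 32.9-fold lower in shLmna 1 and 4.07-fold lower in shLmna 2. Without shLmna 1 the log2 fold change was -2.02, and without shLmna 2 it was -5.02. Each of these fits holds 1 shLmna library, so the gap between the shLmna libraries is not part of its spread.

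The call of H3f3b was lost in DESeq2, where the log2 fold change was -2.85 with an adjusted p of 0.177. The last 1000 bases of H3f3b hold 34.0% G and C, against a median of 47.2% over tested genes, and of the 252 other tested genes within 1 percentage point of that value 37.3% were lower and 8.33% higher with an adjusted p under 0.05 (median log2 fold change -0.55). After a correction for GC content, H3f3b was still lower, with a log2 fold change of -1.95 (adjusted p = 0.0346).

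H3f3a was counted 874 times in shControl 1, 1263 times in shControl 2, 355 times in shLmna 1 and 674 times in shLmna 2. The levels of 271, 338, 140 and 184 CPM did not overlap between groups, with shLmna 1 again the lowest. H3f3a fell by 0.91 on the log2 scale (SE 0.164, adjusted p = 0.00559 in edgeR's quasi-likelihood test), or by 46.6%. This change stayed within the study's limit on fold size, and its adjusted p was 0.0662 without shLmna 1 (log2 fold change -0.73). The 843 other tested genes within 1 percentage point of the 42.7% GC of the H3f3a window had a median log2 fold change of 0.10, and 6.64% of them were lower. With the GC correction the value was -1.07 (adjusted p = 0.00209).

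Since both genes encode 1 protein, their transcripts were summed. The sum was 753 and 872 CPM in shControl, 156 CPM in shLmna 1 and 308 CPM in shLmna 2, which is 71.4% lower on average. The balance of the pair also differed. H3f3a gave 35.9% of H3.3 counts in shControl 1 (Wilson 95% interval 34.1% to 37.9%) and 38.8% in shControl 2 (37.1% to 40.5%). In shLmna 1 it gave 90.1% (86.8% to 92.7%) and in shLmna 2 59.5% (56.7% to 62.4%), so H3f3b was the major source of H3.3 counts in both controls and H3f3a in both knockdown libraries. These intervals cover counting error only, and not reads of H3f3a that may be shared with or lost to copies in other genes. No length scaling was applied, because reads were counted at the 3′ end alone.

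The H3f3a share was 37.4% ± 2.03 in shControl and 74.8% ± 21.6 in shLmna (SD, n = 2), a difference of 37.5 percentage points. A two-sided exact permutation test of the log2 ratio of the pair gave p = 0.333, the smallest value that 2 libraries against 2 allow. The difference was 22.2 points without shLmna 1 and 52.7 points without shLmna 2. These shares were not corrected for GC content. On the scale of the fits, the log2 fold change of H3f3a exceeded that of H3f3b by 1.90, by 0.88 with the GC correction, by 1.30 without shLmna 1 and by 3.92 without shLmna 2.

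**Figure D2:**
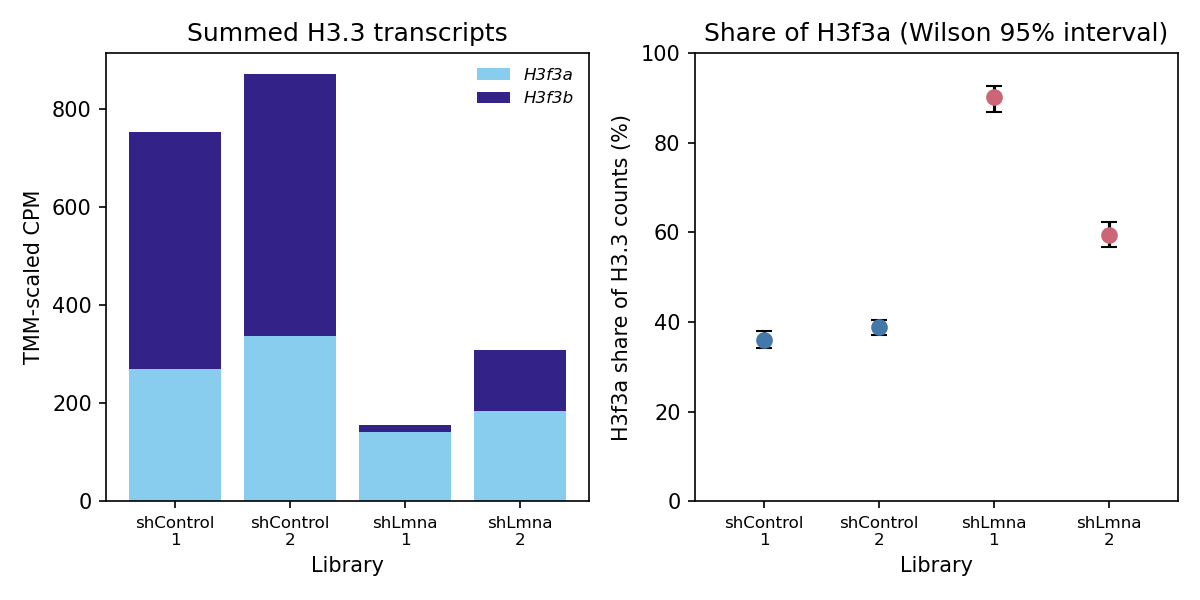
Left, stacked bars of the TMM-scaled CPM of H3f3a and H3f3b in each library. Right, the H3f3a share of the counts of the pair in percent, with Wilson 95% intervals and the groups in the same colours as in the plot of levels. The summed level was 753 and 872 CPM in shControl against 156 and 308 CPM in shLmna, and the share was 35.9% and 38.8% against 90.1% and 59.5%.

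The promoters of the pair are shown because both genes were lower in the same libraries. Each window runs from 250 bases before to 50 bases after the RefSeq start (GRCm38.p6, minus strand, printed 5′ to 3′), at chr1:180813556-180813855 for H3f3a and chr11:116024455-116024754 for H3f3b. Both windows lie inside the GENCODE gene ranges given above, which begin farther upstream, at 180813943 for H3f3a and 116027962 for H3f3b. Matches to CCAAT on either strand are in capitals.
H3f3a promoter: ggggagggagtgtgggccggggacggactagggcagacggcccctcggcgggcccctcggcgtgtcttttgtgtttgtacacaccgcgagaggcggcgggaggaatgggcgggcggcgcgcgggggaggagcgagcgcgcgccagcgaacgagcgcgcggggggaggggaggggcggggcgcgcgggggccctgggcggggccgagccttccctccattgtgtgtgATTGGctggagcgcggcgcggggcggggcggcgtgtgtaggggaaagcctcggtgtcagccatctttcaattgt
H3f3b promoter: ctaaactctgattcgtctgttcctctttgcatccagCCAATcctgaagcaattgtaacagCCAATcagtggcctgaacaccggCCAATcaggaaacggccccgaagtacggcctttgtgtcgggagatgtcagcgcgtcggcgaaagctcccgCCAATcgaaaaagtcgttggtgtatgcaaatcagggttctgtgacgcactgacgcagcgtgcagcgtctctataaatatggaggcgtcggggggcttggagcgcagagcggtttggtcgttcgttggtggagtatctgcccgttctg

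H3f3b had 4 CCAAT matches and H3f3a 1, a motif held by 37.4% of 32851 promoters of that length. H3f3a had 6 GC boxes (GGGCGG on either strand, overlaps counted), a motif held by 35.7% of promoters, and H3f3b had 0. A TATAAA match began 27 bases before the H3f3b start (13.6% of promoters hold 1), and no such match lay in the H3f3a window. RefSeq promoters were matched for 9 of the 10 genes. These are matches of letters and not measured sites.

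Neither H2A.Z gene passed the threshold. H2afz (chr3:137864487-137866922, plus strand) and H2afv (chr11:6427229-6444443, minus strand) encode proteins that differ at 3 of 128 residues. H2afz was counted 1010, 1033, 549 and 1017 times in shControl 1, shControl 2, shLmna 1 and shLmna 2, or 313, 277, 217 and 277 CPM. The groups overlapped, since shLmna 2 matched shControl 2, and the log2 fold change was -0.25 (SE 0.147, adjusted p = 0.29 in edgeR's quasi-likelihood test), with -0.08 without shLmna 1 and -0.43 without shLmna 2. Of the 31-base stretches at the H2afz end, 36.9% occur in 4 other genes, led by Gm8203, so that some of its reads may be shared.

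H2afv was counted 260, 290, 225 and 319 times in the same order, which is 80.5, 77.6, 89.0 and 86.9 CPM. It was the 1 member higher in both shLmna libraries, by a log2 fold change of 0.15 (SE 0.131, adjusted p = 0.476). H2afz gave 79.5% and 78.1% of the H2A.Z counts in shControl (Wilson 95% intervals 77.2% to 81.7% and 75.8% to 80.2%), 70.9% in shLmna 1 (67.6% to 74.0%) and 76.1% in shLmna 2 (73.8% to 78.3%). The share was therefore lower in both shLmna libraries, by 5.3 percentage points on average, but the intervals of shLmna 2 and shControl 2 overlapped and the exact permutation p was 0.333, again the smallest possible. The difference was 2.7 points in size without shLmna 1, and lower in shLmna as before. Summed H2A.Z transcripts were 393 and 354 CPM in shControl and 306 and 364 CPM in shLmna, so the groups overlapped.

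H2afx encodes H2A.X, whose phosphorylated form marks DNA breaks. Only H2afx transcripts with a poly(A) tail could be counted, and any without 1 are not part of the values. Its 529, 587, 346 and 504 counts correspond to 164 and 157 CPM in shControl and to 137 CPM in each shLmna library. The groups did not overlap, but the difference was small, at a log2 fold change of -0.23 (SE 0.118, adjusted p = 0.234 in edgeR's quasi-likelihood test), and the adjusted p was under 0.05 in 1 of 12 alternatives, at 0.0224 on batch-corrected log2 values. H2afj encodes H2A.J, a variant that accumulates in senescent cells. It was a low transcript, with 62, 65, 54 and 68 counts, or 19.2, 17.4, 21.4 and 18.5 CPM. The groups overlapped, with a log2 fold change of 0.12 (SE 0.226, adjusted p = 0.775), which turned to -0.06 with the GC correction.

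MacroH2A transcripts came almost wholly from H2afy, which encodes macroH2A1. H2afy was counted 755, 844, 454 and 639 times, giving 234 and 226 CPM in shControl and 180 and 174 CPM in shLmna. The replicates of a group lay close together and the groups did not overlap, yet the adjusted p was 0.0575 (log2 fold change -0.38, SE 0.117, edgeR's quasi-likelihood test). It was under 0.05 in 4 of 12 alternatives, at 0.0268 with a replicate block and at 0.0102 with the GC correction. In DESeq2 the adjusted p was 0.142. The log2 fold change stayed between -0.41 and -0.34 when any library was left out. H2afy2, which encodes macroH2A2, had 1 count in shControl 2 and 0 in the other libraries and was not tested. The 0 counts allow an H2afy2 share of macroH2A transcripts of up to 0.397% in shControl 1, 0.661% in shLmna 1 and 0.469% in shLmna 2.

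Of the linker histones among the members, H1f0 fell and H1fx did not pass the test. H1f0 encodes H1.0, the linker histone associated with differentiated and resting cells, and lies in a single exon at chr15:79028450-79030504 (plus strand). Its counts were 360, 436, 208 and 305, or 112 and 117 CPM in shControl and 82.3 and 83.1 CPM in shLmna. The groups stood well apart beside the spread of their replicates, and H1f0 fell by 0.46 on the log2 scale (SE 0.127, adjusted p = 0.0354 in edgeR's quasi-likelihood test), or by 27.5%. The call was nonetheless lost in DESeq2 (adjusted p = 0.181) and without shControl 2 (0.0631), shLmna 1 (0.211) or shLmna 2 (0.2), while the log2 fold change stayed between -0.49 and -0.43 when any library was left out. Of the 782 other tested genes within 1 percentage point of its 46.0% GC, 3.45% were lower, with a median log2 fold change of 0.08.

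H1fx encodes H1X, a divergent linker histone whose protein is 29.2% identical to H1.0. It was counted 34, 26, 13 and 24 times, or 10.5, 6.96, 5.14 and 6.54 CPM. Both shLmna libraries were lower, but shLmna 2 lay close to shControl 2, and the log2 fold change of -0.55 (SE 0.359, adjusted p = 0.342 in edgeR's quasi-likelihood test) was not distinguishable at this depth. Summed linker transcripts of the pair were 122 and 124 CPM in shControl and 87.4 and 89.6 CPM in shLmna.

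**Figure D3:**
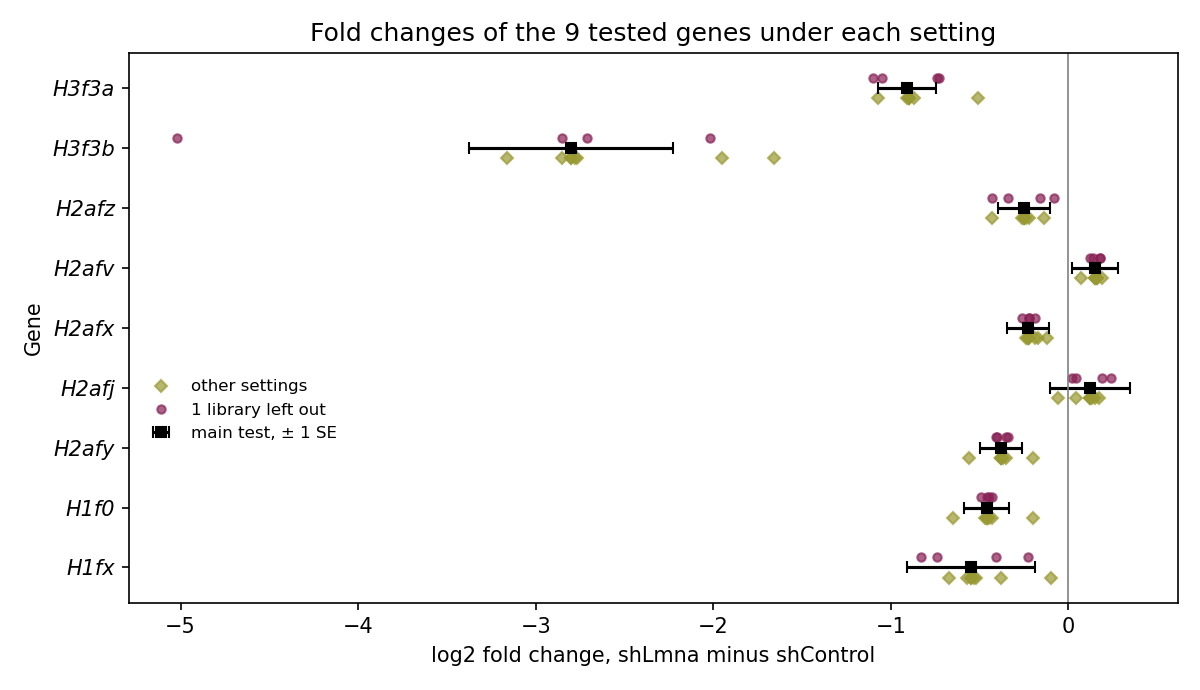
log2 fold change of shLmna over shControl for the 9 tested genes: black squares with bars of 1 SE give the test reported, circles the fits that leave out 1 library and diamonds the other settings. H3f3b ranged from -5.02 to -1.66 and H3f3a from -1.10 to -0.51, whereas H2afj crossed 0 (-0.06 to 0.24).

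Genes that deposit, move or accompany these histones were examined in 9 lists, of which 112 genes were tested. In these lists 8 genes were lower (7.14%) and 6 higher (5.36%) with an adjusted p under 0.05, beside 9.74% and 5.48% of all tested genes. The 14 genes became 1 without shLmna 1, 4 without shLmna 2, 28 without shControl 1 and 24 with the GC correction. DESeq2 gave adjusted p-values of 0.05 or more for Daxx (0.243), Actr6 (0.193), Znhit1 (0.186), Ino80e (0.122), Atm (0.167) and Tspyl1 (0.173), and the GC correction did so for Atm (0.0715) and Snrpf (0.0982). All other adjusted p-values in the account of these lists are from edgeR's quasi-likelihood test.

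Among H3.3 deposition factors and H3-H4 chaperones, 3 of 21 tested genes were lower and 1 was higher. Daxx, the chaperone that works with ATRX, had 135 and 171 counts in the controls against 65 and 107, a log2 fold change of -0.67 (adjusted p = 0.0364). Asf1b, an H3-H4 chaperone of proliferating cells, had 382 and 419 against 147 and 268 counts, a log2 fold change of -0.80 (adjusted p = 0.00628). Supt6, which handles histones during transcription by RNA polymerase II, was also lower, with 527 and 703 against 284 and 406 counts (log2 fold change -0.66, adjusted p = 0.00804). The direction was opposite for Supt16, a subunit of the FACT chaperone, at 76 and 69 counts in the controls against 149 and 145 (log2 fold change 1.22, adjusted p = 0.0088).

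No tested subunit of the HIRA complex passed the threshold in the reported test. Hira had 75 and 66 counts in the controls against 88 and 86 (log2 fold change 0.50, adjusted p = 0.233), with Ubn1 at 0.35 (adjusted p = 0.163) and Cabin1 at -0.21 (adjusted p = 0.433). Ubn2 had 22 and 29 counts against 34 and 46 (log2 fold change 0.82, adjusted p = 0.0821), and it passed with the GC correction (0.95, adjusted p = 0.0423). Asf1a, a chaperone that hands H3.3 to HIRA, was not tested, with 6 and 13 counts in the controls against 1 and 2. Atrx was not tested, having 4 and 117 counts in the shControl libraries and 0 and 1 in shLmna. Its control libraries were far apart, and both shLmna libraries lay under the floor of 3 counts.

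Of the H2A.Z exchange genes, 3 of 26 were lower and 2 higher. Anp32e, the chaperone that takes H2A.Z out of nucleosomes, showed the largest size of change among them: 238 and 288 counts in the control libraries became 28 and 63, a log2 fold change of -2.38 (SE 0.211, adjusted p = 7.45e-05). Ruvbl1, an ATPase common to the SRCAP, p400 and INO80 complexes, had a log2 fold change of -0.50 (adjusted p = 0.0194), and Ino80e of -0.41 (adjusted p = 0.0413). Higher in shLmna were the SRCAP subunits Actr6, from 10 and 10 counts to 20 and 39 (log2 fold change 1.69, adjusted p = 0.0166), and Znhit1 (log2 fold change 0.41, adjusted p = 0.0471). In this test Ruvbl1, which is not particular to SRCAP, and the SRCAP subunits Actr6 and Znhit1 thus differed in direction. The calls of Actr6 and Znhit1 were lost in DESeq2.

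**Figure D4:**
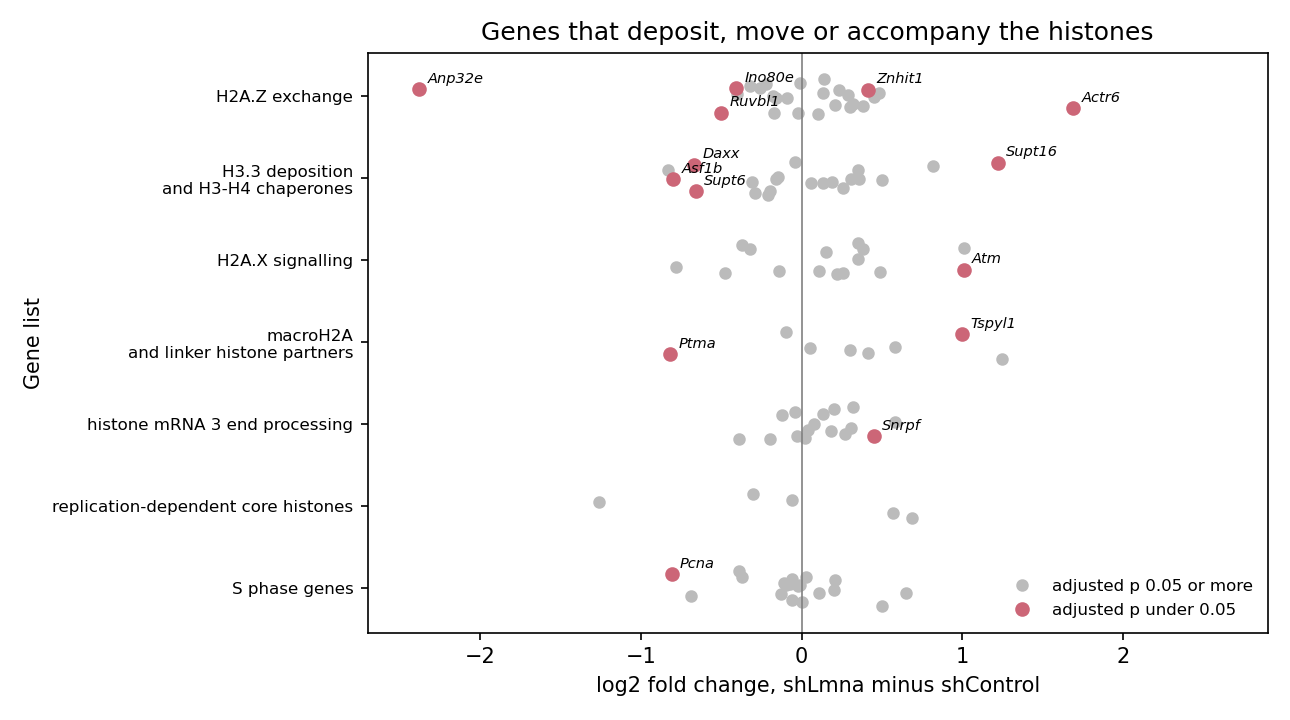
log2 fold change of every tested gene in 7 of the lists, with genes of adjusted p under 0.05 named and in red. Each list holds genes on both sides of 0, and Anp32e (-2.38) lies farthest to the left.

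Of 15 tested genes of H2A.X signalling, 0 were lower and 1 was higher: Atm, the kinase that phosphorylates H2A.X (32 and 62 counts in shControl, 65 and 103 in shLmna, log2 fold change 1.01, adjusted p = 0.0331). At an unadjusted p under 0.05, 2 were lower and 2 higher in edgeR, and DESeq2 called 0 in either direction. With the GC correction 2 were lower, Mdc1 (adjusted p = 0.0225) and Mre11a (0.046), and 1 was higher, Rnf168 (0.0366). The lowest Atm count in shLmna, 65 in shLmna 1, was close to the 62 of shControl 2, but these libraries differed in depth. Scaled to library size the values were 25.7 and 16.6 CPM, and the CPM of the groups did not overlap. Of 8 partners of macroH2A and linker histones, Ptma, whose product prothymosin alpha binds H1, was lower (2797 and 3286 counts against 1019 and 2154, log2 fold change -0.82, adjusted p = 0.00976) and Tspyl1 higher (38 and 44 against 66 and 79 counts, means of 11.8 and 23.8 CPM, adjusted p = 0.0194).

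Replication-dependent histones, whose mRNAs lack a poly(A) tail, gave few counts. The 59 core histone symbols summed to 69.7 and 81.1 CPM in shControl and 64.9 and 59.9 CPM in shLmna, 21 of them were at 0 in every library and 5 could be tested. The most abundant was Hist1h2bc, at 77 and 119 counts in the controls against 62 and 77 (log2 fold change -0.30, adjusted p = 0.414). None of the 5 had an adjusted p under 0.05 (0 in edgeR, 0 at an unadjusted p under 0.05, 0 in DESeq2). The 5 replication-dependent linker genes Hist1h1a to Hist1h1e summed to 4.34 and 7.50 CPM in shControl and 4.75 and 5.99 CPM in shLmna.

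The factors that form the 3′ ends of replication-dependent histone mRNAs were 0 lower and 1 higher of 16 tested (0 lower at an unadjusted p under 0.05 and 0 by DESeq2), the exception being Snrpf (1409 and 1570 counts against 1522 and 2091, log2 fold change 0.45, adjusted p = 0.0286). S phase genes had a median log2 fold change of -0.06 over 19 tested genes. Pcna, the replication clamp, was the 1 of these that was lower (819 and 1259 counts against 384 and 679, log2 fold change -0.81, adjusted p = 0.00975) and 0 were higher (1 at an unadjusted p under 0.05, 0 by DESeq2). With the GC correction 3 were lower (Pcna, Mcm5 and Gins2) and 2 higher (Mcm4 and Rrm1).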

How the data were processed

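Bulk MARS-seq libraries of B16F10 cells were grouped by their sample titles (2 shControl, 2 shLmna). According to the study's methods and the submitters' processing notes, the authors trimmed reads with cutadapt, aligned them to mm10 with STAR 2.4.2a and assigned them with HTSeq to the last 1000 bases of each gene and 100 bases downstream, with UMI duplicates marked. The authors deposited a raw count matrix, which was the input of every main test. Another table deposited by the authors gives a signal (counts divided by DESeq2 size factors), and a further one batch-corrected log2 values, whose batches were not named. The signal table also held the authors' fold directions, p-values and adjusted p-values, which were not used. In each library 100% of the signal values were whole multiples of 1 step (tolerance 0.05), and the matrix exceeded these recovered counts 1.08 to 1.09 times. Whether the matrix was made before UMI duplicates were collapsed is not given in the sources used here.

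Counts were tested with edgeR 4.0.16 (R 4.3.3; TMM, filterByExpr, quasi-likelihood F test, two-sided, Benjamini-Hochberg over 9150 genes). The 3 limits were those of the study. SEs were derived from the F statistic. Alternatives used other scalings, no filter, DESeq2 1.42.0, a replicate block, each library left out, recovered counts, limma 3.58.1 on the log2 values and a loess correction for GC content (8808 genes, 96.3% of those tested, had a value). Scripts were tested on simulated data. Replicates of a group differed by more than counting noise (chi-square per degree of freedom 6.96 in shControl and 3.91 in shLmna). A floor of 3 counts per library (0.788 to 1.2 CPM) and Wilson intervals cover counting error only. Coordinates, coding sequences and exon counts came from GENCODE M21 (GRCm38, the assembly of mm10) and promoters from RefSeq. Where the RefSeq 3′ end lay inside the last exon, transcripts were trimmed to it for GC content and shared stretches. Protein comparisons were translated from the coding sequences. Genes named are the 10 members, Lmna, list genes with an adjusted p under 0.05 (at most 6 a direction) and genes said to be at the floor. The HIRA subunits, Asf1a, Hist1h2bc, list genes that passed with the GC correction alone and the genes of the closing observations were added after their values were seen, as were the comparison with genes of like GC content and the difference in log2 fold change between H3f3a and H3f3b. The members and lists were chosen with earlier results of these data known.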

Additional observations from a re-analysis of the deposited data

How the results depend on the processing

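Of 108 values for the 9 tested members under 12 alternatives, 96 kept their direction and side of the threshold, 6 lost and 5 gained an adjusted p under 0.05, and 1 reversed (H2afj, -0.06 with the GC correction). The 3 members with an adjusted p under 0.05 became 1 in DESeq2 and 5 on batch-corrected log2 values, and 1 to 3 with a library left out. The 1 member called by all limits became 0 in DESeq2 (1 at an unadjusted p under 0.05), 2 with the GC correction and 1 to 2 with a library left out. List genes (14) became 27 without the filter, 8 in DESeq2, 25 with the replicate block, 48 on batch-corrected values, 24 with the GC correction, and 1 (without shLmna 1) to 28 (without shControl 1). Over all genes, 1392 with an adjusted p under 0.05 became 807 in DESeq2 and 3781 on batch-corrected values (503 to 2104 with a library left out), 538 called lower became 28 on batch-corrected values (387 to 744), and 161 called higher became 66 in DESeq2, 2 on batch-corrected values and 278 with the GC correction (60 to 232). The causes were not tested. The H3f3a share difference was 22.2 to 52.7 points with a library left out, that of H2afz -7.9 to -2.7 and that of H2afy 0.00 to 0.12. The sample descriptions give the same plate name for every library. The labels link replicates of the same number by that number alone, and whether they shared a batch is not stated. Their deviations correlated at 0.0129 over 9150 genes between the groups. With the replicate block 4 members had an adjusted p under 0.05, H2afy being added and no other member's call changed. A library left alone in its group was assumed to vary like the other group. Depth limits H1fx, H2afj and H2afy2.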

Other observations

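Cenpa, the centromeric histone H3 variant, was the most abundant of the germline and centromere variants: its counts were 1290 and 1529 in the control libraries and 762 and 1260 in shLmna. Its CPM did not overlap between groups (404 ± 6.93 against 322 ± 29.6, SD, n = 2), but the log2 fold change of -0.33 had an adjusted p of 0.11 in edgeR's quasi-likelihood test (-0.49 and 0.023 with the GC correction). Of the 14 symbols of that list in the matrix, 11 were at 0 in every library.

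The gap between the shLmna libraries at H3f3b was uncommon for a transcript of its level. Of 4744 tested genes with a mean of 100 or more counts, 5 differed at least as much between shLmna 1 and shLmna 2 as H3f3b itself, which is 1 of them. Gapdh, a glycolytic enzyme often used as a reference transcript, had 2257 and 2015 counts in shControl, 86 in shLmna 1 and 2452 in shLmna 2. Srsf3, a splicing factor, had 376, 512, 7 and 84 counts in the same order, and Trim32 had 194, 232, 5 and 102. Capza1 went the other way, with 196, 215, 36 and 6 counts. H3f3b, Srsf3, Trim32 and Capza1 were lower than both controls in each shLmna library, whereas Gapdh was low in shLmna 1 alone. What sets these libraries apart at these genes was not tested.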
